A study of Homo sapiens with 12 samples.

Results

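The 10 genes described here are POU5F1, NANOG, SOX2, LIN28A, DPPA4, TDGF1, ZFP42, PRDM14, L1TD1 and SALL4, a set of genes that mark the pluripotent state of human embryonic stem cells (hESCs). They were chosen by symbol, each symbol encodes a protein, and each matched 1 of the 56266 gene rows of the expression files. RNA-Seq was done on cells of the H1 hESC line and of H1-GATA2-/-, a line from 1 H1 clone in which a PGK promoter-neomycin cassette had been placed at exon 3 of both GATA2 alleles with the help of TALENs. The 10 libraries analysed fell into 5 groups of 2. Undifferentiated GATA2-/- hESCs (KO hESC) were kept without feeder cells on Matrigel in mTeSR1. Hemogenic endothelium (HE), the endothelial population from which blood cells emerge, was sorted as CD34+CD31+CD43- cells on day 8 of co-culture with mouse OP9 stroma, from wild-type (WT HE) and from GATA2-/- cells (KO HE). Hematopoietic progenitor cells (HPCs) were sorted as CD34+CD43+ cells on day 9, again from both genotypes (WT HPC and KO HPC). Wild-type undifferentiated hESCs were not analysed here, so every comparison with hESCs has the knockout as its reference, and for WT HE and WT HPC the genotype and the stage change together. Nothing in the labels says that the 2 libraries of a group came from separate cultures, and the p-values measure only the spread between these libraries.

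Pluripotency rests on a small network of transcription factors led by POU5F1 (OCT4), SOX2 and NANOG, which bind next to each other at many genes, their own included, and keep them on. Other members of the set act around that network. PRDM14, ZFP42 (REX1) and SALL4 are zinc-finger proteins, DPPA4 is a chromatin-bound protein of early embryonic cells, TDGF1 (CRIPTO) is the cell-surface co-receptor through which NODAL signals, and LIN28A and L1TD1 bind RNA. LIN28A holds back the maturation of let-7 microRNAs. As cells leave the pluripotent state toward mesoderm, endothelium and blood, the network is shut down.

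POU5F1 and SOX2 recognise an octamer-like and a SOX-like stretch of DNA that often stand side by side. RefSeq promoters (GRCh38.p14, the 250 bases before the annotated start) were held for 5 of the 10 members, NANOG, SOX2, DPPA4, ZFP42 and L1TD1. Both strands were searched for TTTGCAT, the octamer letters read by POU proteins, and for ACAATG, a form of the letters read by SOX proteins. Of the 35116 promoters of the same length, 1384 (3.94%) held the first and 3261 (9.29%) held the second. The 3 promoters below are shown because they differ in this respect, with the matches in capitals. They come from NANOG at chr12:7789152-7789401 on the plus strand, SOX2 at chr3:181711675-181711924 on the plus strand and DPPA4 at chr3:109337547-109337796 on the minus strand.
NANOG: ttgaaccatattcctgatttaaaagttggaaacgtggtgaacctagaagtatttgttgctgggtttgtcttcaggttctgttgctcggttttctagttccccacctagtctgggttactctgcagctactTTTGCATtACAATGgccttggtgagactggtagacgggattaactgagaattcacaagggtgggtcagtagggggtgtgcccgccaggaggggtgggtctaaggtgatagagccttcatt
SOX2: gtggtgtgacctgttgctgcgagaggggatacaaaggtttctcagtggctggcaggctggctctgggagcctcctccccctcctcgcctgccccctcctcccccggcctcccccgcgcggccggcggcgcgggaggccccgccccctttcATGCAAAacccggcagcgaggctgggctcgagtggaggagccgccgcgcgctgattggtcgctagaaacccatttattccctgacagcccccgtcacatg
DPPA4: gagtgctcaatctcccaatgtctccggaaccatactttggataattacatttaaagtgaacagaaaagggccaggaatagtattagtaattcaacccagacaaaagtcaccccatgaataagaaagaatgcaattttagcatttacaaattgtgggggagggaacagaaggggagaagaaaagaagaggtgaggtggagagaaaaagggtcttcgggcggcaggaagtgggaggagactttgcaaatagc
In NANOG the octamer letters began 120 bases before the start and the SOX letters 112 bases before it, which put them side by side with 1 base between them. This joined arrangement was found in 2 (0.0057%) of the 35116 promoters. In SOX2 the octamer letters were on the other strand, 100 bases before the start, and ACAATG was not matched. Other forms of the SOX letters were not searched. The promoters of DPPA4, ZFP42 and L1TD1 held neither set of letters, which says only that these letters are not in this window. The NANOG and DPPA4 windows had 4 and 3 CpG dinucleotides and those of L1TD1, SOX2 and ZFP42 had 12, 20 and 23, beside a median of 11 over all promoters. A match is a description of the sequence and not evidence of binding.

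Expression was deposited as TPM, a measure of each gene's share of a library's transcripts that is corrected for transcript length, so that levels may be set side by side between genes. TPM keep no record of the number of reads, so the depth behind each value is unknown, and a gene listed at 0 may have been too rare to be read. Whether reads of the mouse OP9 cells were removed is not given in the sources used here, and their part in the low values of the co-cultured HE and HPC libraries was not tested. The files summed to between 998299 and 999106 TPM a library, and 16004 to 17335 genes reached 1 TPM. CD34, on which both gates were set, was at 1.04 and 1.01 TPM in KO hESC, 605 to 1060 TPM in HE and 114 to 242 TPM in HPC libraries. The 10 endothelial markers examined summed to 103 and 120 TPM in KO hESC, 3890 to 4763 in HE and 998 to 1297 in HPC libraries, and SPN, which encodes CD43, was at 1.76 to 8.81 TPM in HE and at 98 to 108 TPM in HPC libraries. Against KO hESC, 10 of 10 endothelial markers were higher in both KO HE and KO HPC, and 5 and 9 of 10 blood markers were higher. Over all genes tested, 13.9% were higher in KO HE and 14.2% in KO HPC. Of the markers that were higher, 4 endothelial markers in each comparison, and 1 and 3 blood markers, reached 1 TPM in both hESC libraries. The others needed the sorted libraries to enter the test, so their being higher is given as a description. The blood marker count in KO HE was 3 with no filter or with only the libraries compared, 2 without KO hESC replicate 1 and 3 without KO hESC replicate 2 or KO HE replicate 1. GATA2 was at 2.05 and 5.54 TPM in KO hESC, at 107 and 78 TPM in WT HE and at 111 and 94 TPM in KO HE. In HPCs it was at 290 and 204 TPM in WT and at 112 and 84 TPM in KO (log2 difference -1.32, adjusted p = 0.296). A value for the whole gene counts any transcript left after the targeting and so does not check the genotype, which is given as labelled.

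In undifferentiated GATA2-/- hESCs the mean levels of the 10 genes ranked from 28 (POU5F1) to 3879 (PRDM14) among all genes. The 10 genes were left at very different levels in the sorted cells. POU5F1, NANOG, SOX2, TDGF1, PRDM14 and L1TD1 were close to 0 TPM in HE and HPCs of both genotypes, ZFP42 was at a few TPM, and LIN28A, DPPA4 and SALL4 were still plainly present.

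POU5F1 is the POU-domain factor without which pluripotent cells do not form or persist, and it lies at chr6:31132114-31148508 on the minus strand of GRCh37. It was at 3332 and 2855 TPM in KO hESC, a mean that ranked 28 among all genes. In HE it was at 3.02 and 1.5 TPM in WT and at 2.09 and 1.02 TPM in KO. In HPCs it was at 0.56 and 1.37 TPM in WT and at 0.69 and 1.09 TPM in KO. The hESC libraries were far above the other 8, and WT and KO libraries overlapped in both HE and HPCs. On the log2(TPM + 1) scale, which understates the change of genes near 0, POU5F1 fell by 10.27 (SE 0.36, adjusted p = 7.17e-07) in KO HE and fell by 10.68 (SE 0.36, adjusted p = 6.94e-07) in KO HPC relative to KO hESC. TCF19, which overlaps POU5F1 on the opposite strand, was at up to 7.14 TPM in hESC and 21.69 TPM in HE and HPC libraries. The preparation is not stated to keep strand, so reads from the shared stretch cannot be told apart.

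NANOG, the homeodomain partner of POU5F1, lies at chr12:7940390-7951742 on the plus strand. It was at 86.34 and 62.01 TPM in KO hESC, was listed at 0 in 7 of the 8 HE and HPC libraries and was at 0.56 TPM in the remaining one, KO HE replicate 2. SOX2, the HMG-box partner, is a gene of 1 exon at chr3:181429713-181432224 on the plus strand. It was at 127.76 and 131.74 TPM in KO hESC, listed at 0 in both WT HE libraries, and at 0.35 and 0.12 TPM in KO HE. In HPCs SOX2 was at 0.24 and 0 TPM in WT and at 0.57 and 0 TPM in KO. The promoters printed above, which carry POU letters at both genes, thus belong to transcripts that were near or at 0 in the sorted cells. NANOG has a near-identical processed copy, NANOGP8, which held 31.40 and 16.01 TPM in KO hESC, 26.7% and 20.5% of the sum of both genes, and short reads may be split between them in either direction. In HE and HPC libraries NANOGP8 was listed at 0 except for 0.64 TPM in KO HPC replicate 2.

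TDGF1, the NODAL co-receptor, was at 678.76 and 683.09 TPM in KO hESC, which ranked it 201 among all genes. It was at 0.56 and 0 TPM in WT HE, 0.74 and 0.84 TPM in KO HE, 0.34 and 0.24 TPM in WT HPC, and 1.65 and 0 TPM in KO HPC. The copy TDGF1P3 held 96.37 and 61.84 TPM in KO hESC (12.4% and 8.30% of the sum) and was listed at 0 in the 8 HE and HPC libraries. LRRC2, which overlaps TDGF1 on the opposite strand, was at up to 4.13 TPM in hESC and 2.89 TPM in HE and HPC libraries. PRDM14, a PR-domain factor with zinc fingers, was at 51.88 and 26.09 TPM in KO hESC. It was listed at 0 in both KO HE and both KO HPC libraries, at 0 and 0.90 TPM in WT HE and at 0.09 and 0 TPM in WT HPC. L1TD1, an RNA-binding protein that derives from a LINE-1 element, was at 385.77 and 284.07 TPM in KO hESC and at 0 to 1.95 TPM elsewhere. Of these 3 genes no HE or HPC library held more than 1.95 TPM. NANOG, SOX2, TDGF1 and PRDM14 entered the test only because of their hESC libraries, so that a lower level was a condition of their being tested, and their values are given as a description. L1TD1 fell by 7.09 on the log2(TPM + 1) scale in KO HE (SE 0.34, adjusted p = 3.38e-06).

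ZFP42, a zinc-finger gene at chr4:188916925-188926200 on the plus strand that is widely used as a mark of undifferentiated cells, lay between both patterns. It was at 132.09 and 104.77 TPM in KO hESC. It was at 3.20 and 1.58 TPM in WT HE, 6.34 and 2.30 TPM in KO HE, 1.45 and 0.63 TPM in WT HPC, and 4.92 and 1.27 TPM in KO HPC. No HE or HPC library reached the level of either hESC library, and WT and KO libraries overlapped in HE and in HPCs. Its log2(TPM + 1) level fell by 4.59 in KO HE (SE 0.56, adjusted p = 0.000374) and fell by 5.02 in KO HPC (SE 0.56, adjusted p = 0.000235) relative to KO hESC.

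LIN28A, which lies at chr1:26737308-26756219 on the plus strand with 4 exons, kept the highest level of the set in the sorted cells. It was at 611.29 and 665.03 TPM in KO hESC, 244.28 and 194.47 TPM in WT HE and 207.30 and 154.22 TPM in KO HE. In HPCs it was at 228.50 and 163.10 TPM in WT and at 163.15 and 97.11 TPM in KO. Each of the 8 sorted libraries was below both hESC libraries, and the sorted groups overlapped with each other except for WT HE and KO HPC. The log2(TPM + 1) level fell by 1.83 in KO HE (SE 0.27, adjusted p = 0.00123) and fell by 2.33 in KO HPC (SE 0.27, adjusted p = 0.000325). LIN28A ranked 214 among all genes in KO hESC, 620 in WT HE, 790 in KO HE, 629 in WT HPC and 968 in KO HPC. Its paralog LIN28B was at 41.58 and 33.58 TPM in KO hESC and at 21.07 to 44.46 TPM in the sorted libraries, where hESC and HPC libraries overlapped (log2 difference -0.66, adjusted p = 0.0756 in KO HE and 0.08, adjusted p = 0.852 in KO HPC). In KO HE it passed as lower with quantile normalization (adjusted p = 0.0247) and with the replicate block (adjusted p = 0.0140).

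DPPA4, at chr3:109044991-109056393 on the minus strand with 7 exons, was at 515.27 and 501.55 TPM in KO hESC. It was at 49.40 and 36.32 TPM in WT HE, 47.72 and 46.17 TPM in KO HE, 41.70 and 33.09 TPM in WT HPC, and 64.36 and 44.50 TPM in KO HPC. Every sorted library was thus well below the hESC libraries yet above 33 TPM. The log2(TPM + 1) level fell by 3.41 in KO HE (SE 0.22, adjusted p = 1.48e-05) and fell by 3.22 in KO HPC (SE 0.22, adjusted p = 2.12e-05).

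SALL4, at chr20:50398870-50419060 on the minus strand with 4 exons, was at 120.76 and 84.00 TPM in KO hESC. In HE it was at 12.82 and 8.08 TPM in WT and at 18.62 and 8.79 TPM in KO. In HPCs it was at 20.73 and 19.99 TPM in WT and at 21.36 and 17.63 TPM in KO. The hESC libraries were apart from the rest, and the HPC libraries were above the HE libraries except that KO HE replicate 1 was above KO HPC replicate 2. The log2(TPM + 1) level fell by 2.88 in KO HE (SE 0.36, adjusted p = 0.000427) and fell by 2.32 in KO HPC (SE 0.36, adjusted p = 0.00142).

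The background to these calls was broad. Of the 21543 genes tested, 16.1% were lower and 13.9% were higher in KO HE than in KO hESC, and 16.4% were lower and 14.2% were higher in KO HPC. The 6 members that did not depend on the hESC libraries to be tested, POU5F1, LIN28A, DPPA4, ZFP42, L1TD1 and SALL4, were each lower in both comparisons. In WT HE and WT HPC the same 6 were also lower than in KO hESC, where 14.9% of genes were lower and 13.9% were higher in WT HE, and 17.5% were lower and 12.5% were higher in WT HPC. These 4 comparisons share the KO hESC libraries. The members' median log2 difference was -5.57 in KO HE and -5.73 in KO HPC, and -4.0 and -4.12 without the 4 genes that had to differ, beside -0.02 over all genes in KO HE. In bulk samples, fewer cells that express a gene and less RNA per cell cannot be told apart.

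**Figure D1:**
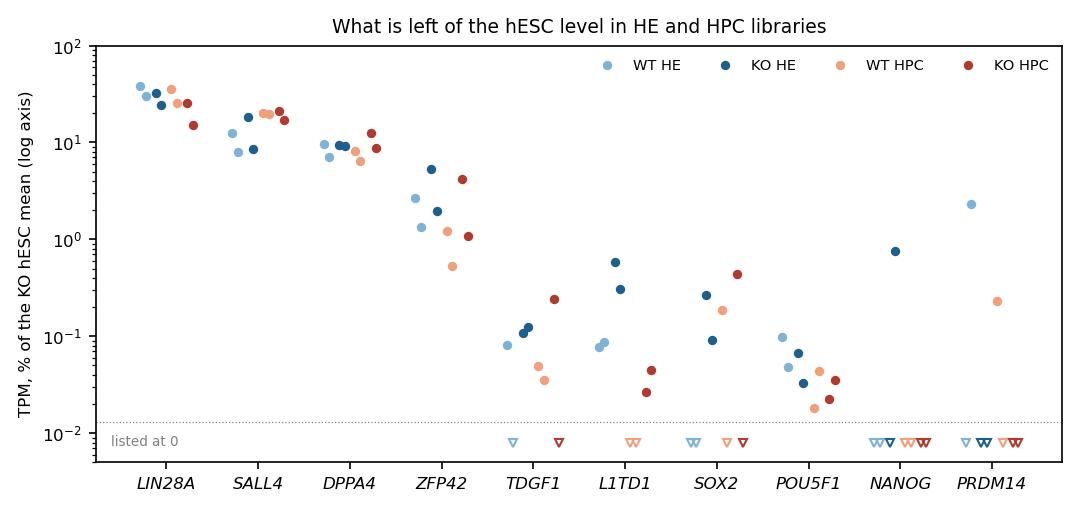
Level of each gene in each HE and HPC library as a percent of its mean TPM in the 2 KO hESC libraries, on a log axis, with genes in order of their median and open triangles below the dotted line for libraries in which the gene is listed at 0. LIN28A, SALL4 and DPPA4 lay between 6.51% and 38.3%, and the points of the 6 genes at the right were under 1% except for PRDM14 in WT HE replicate 2.

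What was left of each gene, taken as a percent of its mean in KO hESC, spanned several orders of magnitude. Over the 8 HE and HPC libraries LIN28A kept 15.2% to 38.3% (median 28%), SALL4 7.89% to 20.9% (median 17.7%) and DPPA4 6.51% to 12.7% (median 8.92%). ZFP42 kept 0.532% to 5.35% (median 1.64%). POU5F1, the most abundant of the set in hESCs, kept 0.0181% to 0.0976% (median 0.0398%), and its highest share was below the lowest share of LIN28A, SALL4, DPPA4 and ZFP42. The medians of TDGF1, L1TD1 and SOX2 were 0.0661%, 0.0612% and 0.0462%, and those of NANOG and PRDM14 were 0. The members were chosen as marks of hESCs, with earlier results of these data known, so a comparison of their shares with other genes is only a description. Low shares of this size were unusual among genes with a mean of at least 30 TPM in KO hESC, a level that all 10 members reached. Of 4766 such genes, 42 (0.881%) had a median share under 0.1% and 102 (2.14%) under 1%, while 243 (5.10%) were under 10% and 498 (10.4%) under 30%. The median share of LIN28A fell just inside the last of these limits.

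The make-up of the set changed with its level. Summed over the 10 genes, KO hESC held 6042 and 5398 TPM, and the sorted libraries held 162 to 314 TPM. POU5F1 gave 55.1% and 52.9% of that sum in KO hESC and under 1% in each sorted library. LIN28A gave 10.1% and 12.3% in KO hESC and 60.0% to 80.0% in the sorted libraries, and with DPPA4 and SALL4 it gave 96.0% to 99.1%. LIN28A was the leading gene of the set in each of the 8 sorted libraries. By group mean it kept 34.4% of its hESC level in WT HE, 28.3% in KO HE, 30.7% in WT HPC and 20.4% in KO HPC. SALL4 kept 10.2%, 13.4%, 19.9% and 19.0% in the same order, and DPPA4 8.43%, 9.23%, 7.36% and 10.7%.

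Surface genes of undifferentiated cells were examined beside these values. Of the 6 markers in the files, 4 were lower in KO HE and 6 in KO HPC than in KO hESC, and their summed level went from 1892 and 1627 TPM in KO hESC to 553 to 655 TPM in HE and 105 to 162 TPM in HPC libraries. Most of the HE sum was THY1, which endothelial and stromal cells also express, at 423 to 532 TPM. CDH1, the E-cadherin of epithelial and pluripotent cells, was at 171 and 139 TPM in KO hESC and at 0 to 3.36 TPM in the sorted libraries. EPCAM, another epithelial adhesion molecule, was at 147 and 141 TPM in KO hESC and at 1.64 to 6.83 TPM elsewhere, and CLDN6, a tight-junction protein, at 911 and 680 TPM and at 2.16 to 11.57 TPM. In the same libraries the share of the hESC level kept by POU5F1 was at most 0.0976%, beside at least 15.2% for LIN28A. Of the neural markers, PAX6 was at 0 to 0.93 TPM over the 10 libraries, and NES, which endothelial cells also express, was the 1 of 2 tested that was lower in KO HPC, with 0 past the threshold in KO HE. Without KO hESC replicate 1 its call was lost. Of 5 germ cell markers tested, 1 was lower and 2 were higher in KO HE, and 1 was lower and 1 was higher in KO HPC. The one that was lower, TFAP2C, depended on the hESC libraries to be tested. PRDM1, which was higher in both comparisons, depended on the sorted libraries. Of the 8 mesenchymal markers, 4 were higher in KO HE and 2 in KO HPC. Of these, 2 and 1 reached 1 TPM in both hESC libraries, and the others needed the sorted libraries to be tested. The 8 markers summed to 81 and 123 TPM in hESC, 410 to 718 TPM in HE and 101 to 237 TPM in HPC libraries. Their part in the levels of LIN28A, DPPA4 and SALL4 was not tested. Both gates required CD34, and the sort also stained TRA-1-85, an antigen of human cells. Of 4 primitive streak and mesoderm markers tested, 0 were lower and 1, HAND1, was higher in both comparisons. HAND1 was listed at 0 in both hESC libraries, and its call in KO HE was lost without KO hESC replicate 1, KO hESC replicate 2 or KO HE replicate 1.

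**Figure D2:**
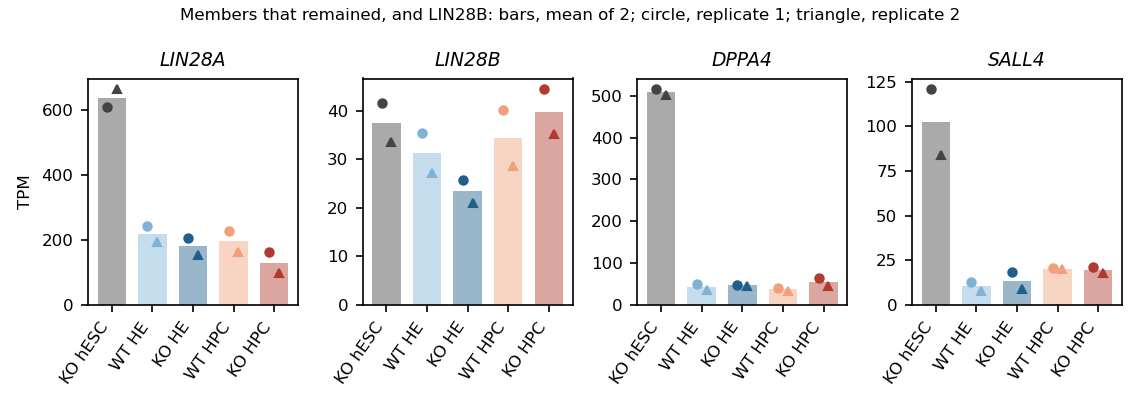
TPM of LIN28A, its paralog LIN28B, DPPA4 and SALL4 in the 5 groups on linear axes from 0, with bars for the mean of 2 libraries, circles for replicate 1 and triangles for replicate 2. LIN28A, DPPA4 and SALL4 are highest in KO hESC, LIN28B is between 21.07 and 44.46 TPM in the sorted libraries, and the circles stand above the triangles in the 4 sorted groups of each gene.

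Genotype was compared within each sorted population, which asks whether loss of GATA2 left more or less of the pluripotency set behind. In HE, 0.0139% of the 21543 genes (3 genes) were lower and 0.00464% (1 gene) were higher in KO than in WT, and 0 of the 10 members passed by limma. At an unadjusted p under 0.05 there was 1 member, beside 1045 of all genes (4.85%). LIN28A differed by -0.28 on the log2(TPM + 1) scale (SE 0.27, 95% interval -0.91 to 0.34), DPPA4 by 0.14 (interval -0.36 to 0.65) and SALL4 by 0.31 (interval -0.50 to 1.12). These intervals leave room for a difference of either sign. The member with the smallest unadjusted p was L1TD1, at 0.26 and 0.29 TPM in WT HE and at 1.95 and 1.02 TPM in KO HE. Both KO libraries were above both WT libraries, at levels that were under 1% of the hESC level, and the difference of 0.94 did not pass (SE 0.34, unadjusted p = 0.0243, adjusted p = 0.929).

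In HPCs, 0.0325% of genes (7 genes) were lower and 0.0279% (6 genes) were higher in KO than in WT, and again 0 members passed by limma, with 1 member and 1925 of all genes (8.94%) at an unadjusted p under 0.05. DPPA4 was at 41.70 and 33.09 TPM in WT and 64.36 and 44.50 TPM in KO, without overlap, and differed by 0.52 (SE 0.22, 95% interval 0.01 to 1.02, unadjusted p = 0.0470, adjusted p = 0.549). LIN28A lay the other way, at 228.50 and 163.10 TPM in WT and 163.15 and 97.11 TPM in KO, where the groups met at about 163 TPM. Its difference was -0.61 (SE 0.27, 95% interval -1.24 to 0.01, unadjusted p = 0.0531, adjusted p = 0.567). ZFP42 differed by 0.88 (SE 0.56, adjusted p = 0.691) and SALL4 by -0.07 (SE 0.36, 95% interval -0.88 to 0.75). Set by replicate number, the ratio of KO to WT for LIN28A was 0.849 and 0.793 in HE and 0.714 and 0.595 in HPCs, and for DPPA4 it was 0.966 and 1.27 in HE and 1.54 and 1.34 in HPCs. For ZFP42, at a few TPM, it was 1.98 and 1.46 in HE and 3.39 and 2.02 in HPCs, above 1 in each, and for SALL4 it was 1.45 and 1.09 in HE and 1.03 and 0.882 in HPCs. The numbers were not taken to pair the samples, so a direction shared by these ratios depends on how libraries are matched. Over all 4 matches of a KO with a WT library, KO was higher for LIN28A in 1 in HE and 1 in HPCs. It was higher in 3 and 3 for ZFP42, 2 and 4 for DPPA4, and 3 and 2 for SALL4.

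Whether the genotype difference itself changed from HE to HPCs was tested by the interaction term. It was -0.33 for LIN28A (SE 0.39, adjusted p = 0.944), 0.37 for DPPA4 (SE 0.32, adjusted p = 0.925), -0.37 for SALL4 (SE 0.50, adjusted p = 0.952) and 0.30 for ZFP42 (SE 0.79, adjusted p = 0.992). No member passed, and neither did any other gene by limma (0 genes, 0%, with 1281 genes at an unadjusted p under 0.05).

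**Figure D3:**
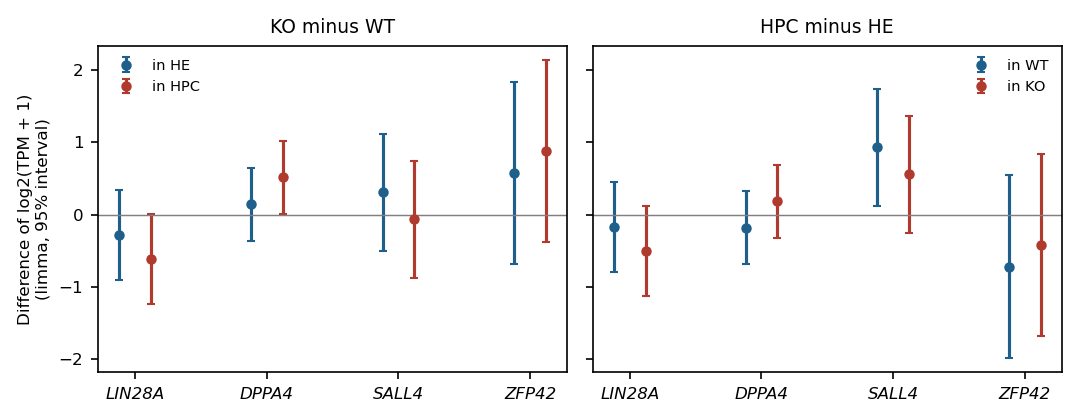
Differences of log2(TPM + 1) with 95% intervals from limma for the 4 members with the highest levels in sorted cells, KO minus WT at the left and HPC minus HE at the right, on linear axes with a line at 0. Most intervals cross 0, and those that do not (DPPA4 between HPC genotypes and SALL4 between WT HPC and WT HE) did not pass after adjustment over all genes.

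From HE to HPCs, 0 of the 10 members passed in WT or in KO cells. In WT cells 6.59% of all genes tested were lower and 3.32% were higher in HPC than in HE, and in KO cells 7.24% were lower and 5.50% were higher. Beside shares of this size, 0 of 10 does not set the members apart from other genes. NANOG, SOX2, TDGF1 and PRDM14 were also near or at 0 TPM in both populations. SALL4 was at 12.82 and 8.08 TPM in WT HE and 20.73 and 19.99 TPM in WT HPC, without overlap, a difference of 0.93 (SE 0.36, 95% interval 0.12 to 1.74, unadjusted p = 0.0289, adjusted p = 0.157). In KO cells SALL4 overlapped and the difference was 0.56 (SE 0.36, adjusted p = 0.374). LIN28A differed by -0.17 in WT (SE 0.27, 95% interval -0.80 to 0.45) and by -0.50 in KO (SE 0.27, 95% interval -1.13 to 0.12). L1TD1 was at 1.95 and 1.02 TPM in KO HE and 0.09 and 0.15 TPM in KO HPC, a difference of -1.12 that did not pass (SE 0.34, adjusted p = 0.0683) but that did pass with a pseudocount of 0.1 (adjusted p = 0.0269).

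The replicates of the sorted groups differed in a way that touches these values. In the column headers, replicate 2 of each HE and HPC group carries a 4-digit tag, whose meaning is not stated, and replicate 1 does not. LIN28A, DPPA4, ZFP42 and SALL4 were higher in replicate 1 than in replicate 2 in each of the 4 sorted groups, as were 3312 (15.4%) of the genes tested, and 675 genes (3.13%) were lower in each. Each replicate number holds 1 library of each sorted group, so the genotype and stage comparisons are balanced over the tag, and its part in the spread of these genes was not tested. The headers of the KO hESC libraries end in H1P38 and H1P58, and H1 is also the name of the parent line. POU5F1 was the highest of the set in both libraries. What these header numbers mean is not stated. The lower one is also the passage at which, by the extended methods, the parent hESC line was targeted. The genotype of these libraries is given as labelled, and whether the header numbers bear on it was not tested.

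Genes that work with the set were taken as lists. As in the set, a list gene that reached 1 TPM only in hESCs entered the test through those libraries and had to be lower, so each count of genes that fell is also given without such genes. Of 12 other transcription factors of primed pluripotent cells, 10 fell in KO HE and 11 in KO HPC, with a median log2 difference of -3.99 and -4.41, and 0 rose. Of the 7 that did not depend on the hESC libraries, 5 fell in KO HE and 6 in KO HPC, with medians of -3.20 and -4.40. Among them, VRTN was at 132 and 122 TPM in KO hESC and at 0.36 to 3.27 TPM in the sorted libraries. ZSCAN10 was at 173 and 186 TPM in KO hESC, 8.0 to 19.43 TPM in HE and 0.13 to 2.30 TPM in HPC libraries, without overlap between HE and HPCs. MYCN, named after its values were seen, was at 62.58 and 45.57 TPM in KO hESC, 44.98 to 86.75 TPM in HE and 86.09 to 139.80 TPM in HPC libraries and passed in neither KO HE nor KO HPC (log2 difference 0.22, adjusted p = 0.660 and 0.83, adjusted p = 0.0844). In KO HPC it passed as higher with quantile normalization (adjusted p = 0.0272) and with the replicate block (adjusted p = 0.0140). MYCN was higher in WT HPC than in KO hESC (1.09, adjusted p = 0.0324) and than in WT HE (1.20, adjusted p = 0.0497).

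Genes of NODAL and FGF signalling, the pathways that keep primed cells undifferentiated, were divided. Of 14 tested, 7 fell and 1 rose in both KO HE and KO HPC, with a median log2 difference of -1.22 and -1.33. Of the 11 that did not depend on the hESC libraries, 4 fell in each, with medians of -0.57 and -0.23. The ligand NODAL was at 42.56 and 10.73 TPM in KO hESC and at 0 to 0.46 TPM in the sorted libraries. Its inhibitors LEFTY1 and LEFTY2 were at 71.85 and 33.09 TPM and at 19.66 and 17.15 TPM in KO hESC, and at 0 to 2.25 TPM and 0 to 0.88 TPM elsewhere. GDF3, another ligand of this family, named after its values were seen, was at 23.1 and 11.24 TPM in KO hESC, 20.84 and 8.95 TPM in WT HE and 4.24 and 3.78 TPM in KO HE. In HPCs GDF3 was at 94.0 and 55.14 TPM in WT and at 40.13 and 18.06 TPM in KO. It fell in KO HE relative to KO hESC (log2 difference -1.78, adjusted p = 0.0296) and was higher in WT HPC than in KO hESC (2.09, adjusted p = 0.0151). From HE to HPCs it was higher by 2.31 in WT (adjusted p = 0.0240) and by 2.48 in KO (adjusted p = 0.0146). FGF2, the growth factor on which hESC culture depends, was at 35.78 and 31.51 TPM in KO hESC and at 0.19 to 2.0 TPM elsewhere. The gene that rose, named after its values were seen, was ACVR1B, a type I receptor for NODAL, from 6.30 and 7.37 TPM in KO hESC to 28.87 and 18.41 TPM in KO HE.

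Of 15 other genes that are high in pluripotent cells, 14 fell in KO HE and 14 in KO HPC, with a median log2 difference of -3.42 and -3.90, and 0 rose. Without ESRP1, which depended on the hESC libraries, 13 of 14 fell in each. HHLA1 was at 916 and 1156 TPM in KO hESC and at 0.91 to 3.12 TPM in the sorted libraries. ESRP1, a splicing regulator of epithelial cells, was at 75.96 and 76.53 TPM in KO hESC and at 0 to 0.82 TPM elsewhere. GAL, which encodes the neuropeptide galanin, was at 357 and 182 TPM in KO hESC, 0.38 to 4.87 TPM in HE and 11.29 to 19.77 TPM in HPC libraries. Some genes of this list kept shares like those of DPPA4 and SALL4. Named after their values were seen, DNMT3B, a de novo DNA methyltransferase, was at 795 and 518 TPM in KO hESC and at 60.64 to 103.93 TPM in the sorted libraries, and TRIM71, a let-7 target that regulates RNA, was at 61.33 and 71.12 TPM and at 12.11 to 26.03 TPM.

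Naive-state factors, which mark an earlier form of pluripotency than that of H1 cells, gave few calls. Of 8 tested, 2 fell and 2 rose in KO HE, and 3 fell and 2 rose in KO HPC. Both that fell in KO HE, TFCP2L1 and DPPA5, depended on the hESC libraries to be tested, and in KO HPC 1 of the 3, NR5A2, did not. The number that fell ranged from 0 to 3 in KO HE and from 0 to 4 in KO HPC without 1 library, being 0 in KO HE without KO HE replicate 1 or replicate 2 and 0 in KO HPC without KO HPC replicate 2. Those that rose were KLF2 and TBX3, factors that vascular and mesodermal cells also use, and both entered the test through the sorted libraries. In KO HPC 1 of the 2 passed without KO hESC replicate 2. KLF2 was at 0.18 and 0.17 TPM in KO hESC, 66.53 to 120.02 TPM in HE and 23.68 to 35.87 TPM in HPC libraries. TBX3 was at 0.43 and 0 TPM in KO hESC and at 3.52 to 19.67 TPM elsewhere. The members of this list that fell were low from the start. DPPA5 was at 1.07 and 3.09 TPM in KO hESC and was listed at 0 in the 8 sorted libraries, and NR5A2, which fell in KO HPC, was at 7.17 and 3.53 TPM and at 0.50 to 3.09 TPM.

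The proteins that process let-7, a pathway in which LIN28A acts, were examined too. Of 7 tested, LIN28B, ZCCHC11, ZCCHC6, DIS3L2, DROSHA, DGCR8 and DICER1, 0 passed by limma in either direction in KO HE and in KO HPC, with 1 and 0 at an unadjusted p under 0.05. LIN28B passed as lower in KO HE under the alternatives named above, and DICER1 as higher in KO HPC without KO hESC replicate 1 (log2 difference 0.94, adjusted p = 0.0473). The median share of the hESC level kept by the 6 genes with at least 10 TPM in KO hESC was 101%. Mature let-7 was not analysed here. Among 14 paralogs of the members, 7 fell and 1 rose in both KO HE and KO HPC, and of the 11 that did not depend on the hESC libraries 5 fell in each. SALL2, which is related to SALL4, was at 148 and 199 TPM in KO hESC and at 4.47 to 12.83 TPM elsewhere. SOX3, a close relative of SOX2, was at 12.39 and 19.28 TPM and listed at 0 in the 8 sorted libraries. DPPA2, which forms a pair with DPPA4, was at 20.43 and 15.60 TPM in KO hESC and at 0.21 to 1.80 TPM elsewhere, a level under that of DPPA4 in each library. The paralog that rose was PRDM1, a relative of PRDM14 that also stands in the germ cell list, that entered through the sorted libraries and that did not pass in KO HPC without KO hESC replicate 2.

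The 5 genes whose profile over the 10 libraries was most like the mean standardised profile of the set, among 11573 genes with a mean of at least 10 TPM in some group, were ALPL, SNORD65, CPZ, FAM160A1 and FHDC1, with a Pearson r of 0.9972, 0.9966, 0.9965, 0.9961 and 0.9960. ALPL encodes the tissue-nonspecific alkaline phosphatase that is stained to find pluripotent colonies. It was at 185.66 and 165.89 TPM in KO hESC and at 2.39 to 5.28 TPM in the sorted libraries. The members' own r ran from 0.9244 for LIN28A and 0.9291 for SALL4 to 0.9975 for SOX2. With 2 hESC libraries far from the other 8, such an r mostly says that a gene was high in the first and low in the rest, and 431 genes had an r over 0.95.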

How the data were processed

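RNA was prepared with a TruSeq kit and read on a MiSeq as single-end reads, which the authors trimmed and aligned to hg19 with Bowtie. The submitters' processing notes also name RSEM and mm10, without a role, and whether mouse reads were removed is not given in the sources used here. The authors deposited 1 table of TPM per library, with gene symbols and Ensembl IDs. Of the 12 samples in the labels, 2 were not analysed here. TPM were tested as log2(TPM + 1) with limma 3.58.1 in R 4.3.3, with the 5 groups in 1 fit and a mean-variance trend. Genes with at least 1 TPM in at least 2 libraries entered (21543 of 56266), and p-values were adjusted over all of them by Benjamini-Hochberg, with a threshold of 0.05. The authors' own comparison used Cuffdiff on alignments and was not repeated. The script was tested on simulated data. Alternatives were a pseudocount of 0.1, no filter, only the libraries compared, quantile normalization, no trend, a replicate block, and leaving out each library. The fit of the block to HE and HPC libraries only, and list counts without genes that entered only through the hESC libraries, were chosen after seeing the data.

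The members and the gene lists were chosen with earlier results of these data known. All members are given in every library. From each list, the counts, the median and up to 4 genes with the largest difference among those past the threshold in KO HE or KO HPC against KO hESC could be named, and 1 such gene is not reported here. CD24 and JADE1 were listed but not matched by symbol. CD34 was added after seeing the data. Gene positions are from GENCODE v44lift37 (GRCh37), and promoters from RefSeq. TPM keep no read number, so no counting interval can be given.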

Additional observations from a re-analysis of the deposited data

How the results depend on the processing

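The 6 members tested independently of the hESC libraries stayed below KO hESC and past the threshold under each alternative run. Between genotypes and in the interaction no member passed under any alternative. From KO HE to KO HPC 1 member, L1TD1, passed with a pseudocount of 0.1 (difference -2.80, adjusted p = 0.0269), with quantile normalization (-1.19, adjusted p = 0.0405) and without the trend (-1.12, adjusted p = 0.0325). With 1 library left out, small differences that had not passed changed sign. Between HE genotypes DPPA4 ranged from -0.072 to 0.36 and SALL4 from -0.19 to 0.81, and between HPC genotypes SALL4 from -0.20 to 0.066. From WT HE to WT HPC DPPA4 ranged from -0.40 to 0.032 and LIN28A from -0.42 to 0.068, and from KO HE to KO HPC ZFP42 from -1.12 to 0.27 and DPPA4 from -0.075 to 0.45. The interaction ranged from -0.40 to 0.99 for ZFP42, from -0.87 to 0.13 for SALL4 and from -0.70 to 0.043 for LIN28A. The share of its hESC level kept by SALL4 ranged from 16.9% to 24.2% in WT HPC and from 16.1% to 23.2% in KO HPC with 1 library left out, the extremes being those without an hESC library, and it was 21.8% in WT HPC after quantile normalization. Shares moved more where the 2 sorted libraries differed, for SALL4 in KO HE from 8.59% to 18.2% and for ZFP42 from 1.94% to 5.35% in KO HE and from 1.07% to 4.15% in KO HPC. Of the marker lists, germ cell counts ranged from 0 to 2 lower and from 0 to 1 higher in KO HPC without 1 library, and mesenchymal markers higher in KO HPC from 1 to 2.

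Counts over all genes moved more. Between HE genotypes 4 genes passed, 87 with no filter, 12 without the trend, 0 with only the libraries compared and 0 in each fit without 1 library. Between HPC genotypes 13 passed, 6 with a pseudocount of 0.1, 29 with no filter, 20 without the trend, 0 with only the libraries compared and 0 to 9 without 1 library. From WT HE to WT HPC 2134 passed, 1035 with no filter, 0 with only the libraries compared and 849 to 1505 without 1 library. From KO HE to KO HPC 2745 passed, 1511 with no filter, 0 with only the libraries compared and 1257 to 1826 without 1 library. In the interaction 0 passed, 30 with no filter and 0 to 5 without 1 library. Against KO hESC, counts without 1 library were 4075 to 4431 of 6462 in KO HE, 4180 to 5053 of 6586 in KO HPC, 3911 to 4315 of 6208 in WT HE and 4124 to 4895 of 6462 in WT HPC, with 4386 in KO HPC with only the libraries compared. Where only the libraries compared were fitted or 1 was left out, fewer residual degrees of freedom were at hand. Otherwise the cause was not tested.

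The labels number the replicates, but deviations from the group means were only weakly correlated between samples with the same number. The correlation was 0.123 between WT HE and KO HE, 0.0551 between WT HPC and KO HPC and -0.0141 to 0.0317 in the other pairs. Such a correlation over genes leaves out a shift shared by all genes. Of the genes tested, 15.4% were higher and 3.13% were lower in replicate 1 in each of the 4 sorted groups. Replicate 2 of each sorted group shares a header tag of unstated meaning, the labels name no shared culture or day, and not every pair was correlated by over 0.1, so the numbers were not taken to pair the samples. With the replicate block 2 genes passed between HE genotypes and 3 between HPC genotypes, and 0 in each with the block on HE and HPC libraries only. The block changed no call of a member. Of the lists it added LIN28B lower and 1 neural marker higher in KO HE and MYCN higher in KO HPC.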
